A study of Caenorhabditis elegans with 2 samples.

Results

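The sites described here are the 217 places on the X chromosome of Caenorhabditis elegans where chromatin carrying tagged LIR-1 was reproducibly precipitated. They are the X members of a conservative peak set of 1209 sites that the authors selected on the irreproducible discovery rate (IDR), a measure of how well the rank of a peak is shared between replicates, and the other 992 lie on the 5 autosomes. LIR-1 has zinc fingers and is a relative of LIN-26. The series held 2 libraries of 1 group, labelled biological replicates 1 and 2, so no conditions were compared. All animals carried TY1::EGFP::3xFLAG::lir-1, inserted by CRISPR at lir-1 itself, and were young adults collected at 63 hours from a start as starved first-stage larvae. DNA was sheared by sonication and recovered from whole animals with an antibody against GFP, so tissues cannot be told apart, and the sex of the animals is not recorded in the labels. A library of untagged animals was not among those used, and a site marks where precipitation was reproducible, not more.

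In C. elegans, hermaphrodites carry a pair of X chromosomes and males a single one. A dosage compensation complex built on condensin is brought to both X chromosomes of hermaphrodites by SDC-2 at recruitment sites that share a sequence motif, spreads from there, and lowers transcription from X. In the germline, X is largely silent. The X chromosome is also rich in tRNA genes, which are read by RNA polymerase III from internal promoter elements, the A box and the B box.

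The first sequences shown carry the 8-base core GCGCAGGG of the dosage compensation recruitment motif, which had the lowest adjusted p between X and autosomal sites of the 8 motifs searched. Each line is named for the nearest protein-coding gene, runs for 24 bases 5′ to 3′ on the strand that reads as the core, and has the core in capitals; 11 of the 15 copies inside X sites are shown. Bases are from the RefSeq genome WBcel235, which is the ce11 assembly of the peak files.
cest-16, chrX:6296568-6296591, plus strand: taggtatcGCGCAGGGaagattta
F20B6.9, chrX:4209258-4209281, minus strand: ccgctatcGCGCAGGGacacctct
nspc-17, chrX:14525892-14525915, minus strand: tgcctatcGCGCAGGGacagatgt
F22H10.2, chrX:16682164-16682187, minus strand: aaaacatcGCGCAGGGaacatcaa
gtr-1, chrX:806666-806689, plus strand: cgattatcGCGCAGGGgtgtttgt
ins-39, chrX:1345048-1345071, plus strand: tgtcattcGCGCAGGGcagctgag
Y41G9A.17, chrX:2997115-2997138, minus strand: aatttatcGCGCAGGGaggaagta
xol-1, chrX:8036393-8036416, minus strand: tttttatcGCGCAGGGacgtatgt
xol-1, chrX:8036427-8036450, plus strand: tttccatcGCGCAGGGaacccttc
C41A3.2, chrX:5429582-5429605, plus strand: taaatttaGCGCAGGGaggacgcc
dpy-23, chrX:4395607-4395630, plus strand: ggagacaaGCGCAGGGagaactgg

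The windows that reach 50 bp to either side of the summits of the 6 strongest X sites are shown next, on the plus strand, since they hold the tallest peaks of the chromosome. Capitals mark CACACA or its complement TGTGTG, a 6-base string picked after its shares had been seen.
ZC506.1, chrX:9958697-9958797: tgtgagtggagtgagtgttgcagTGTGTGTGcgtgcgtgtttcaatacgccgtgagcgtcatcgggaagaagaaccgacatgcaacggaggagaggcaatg
F46H5.2, chrX:7265078-7265178: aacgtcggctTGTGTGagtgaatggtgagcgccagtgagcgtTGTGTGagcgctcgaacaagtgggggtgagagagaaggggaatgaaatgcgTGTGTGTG
hda-4, chrX:16726970-16727070: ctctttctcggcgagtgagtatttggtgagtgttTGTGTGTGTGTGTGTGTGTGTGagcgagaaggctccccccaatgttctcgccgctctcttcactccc
epn-1, chrX:14818918-14819018: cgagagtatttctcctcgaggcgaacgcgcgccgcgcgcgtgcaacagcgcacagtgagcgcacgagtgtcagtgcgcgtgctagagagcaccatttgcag
spat-3, chrX:4606464-4606564: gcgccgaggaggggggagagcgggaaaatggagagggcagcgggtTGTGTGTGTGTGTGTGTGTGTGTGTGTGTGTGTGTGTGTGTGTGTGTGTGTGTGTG
ain-1, chrX:16612415-16612515: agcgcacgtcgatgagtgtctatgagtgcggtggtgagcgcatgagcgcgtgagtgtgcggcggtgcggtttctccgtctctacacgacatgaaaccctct

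A window at a tRNA gene completes the set. It is the strongest X window near a tRNA gene that holds the B box consensus GTTCGANNC, and it lies on the plus strand at chrX:14228919-14229019, over a tRNA-Trp gene (WBGene00004716) of the minus strand whose sequence has no identical copy. Capitals mark both matches to the consensus, which read on the minus strand.
WBGene00004716: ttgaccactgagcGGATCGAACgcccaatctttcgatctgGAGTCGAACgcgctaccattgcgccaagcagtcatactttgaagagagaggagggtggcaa

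Sites that held the dosage compensation core were found mainly on X. The core, on either strand, was present in 10 of the 217 X windows (4.61%, exact 95% interval 2.23 to 8.31) and in 0 of the 992 autosomal windows (upper limit 0.371%). The difference had an adjusted p of 2.33e-07 (Fisher's exact test, two-sided, Benjamini-Hochberg over 8 motifs), in a test that treats sites as independent, which neighbours are not. Windows 500 bp to either side held the core in 0.230% of cases on X and in 0 of 1984 on the autosomes. Of all windows of that length laid end to end, 0.0388% on X and 0.0263% on the autosomes held it.

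Counted as copies in place of windows, the contrast was of the same kind. The core occurred 81 times on X, or 4.57 times per Mb, and 15 of these copies (18.5%) lay wholly inside 12 of the X sites. The peak of a site can reach beyond its window or stop short of it, so these 12 sites are not the same as the 10 windows. On the autosomes the core occurred 233 times, or 2.82 times per Mb, and 3 copies (1.29%) lay inside a site, all on chromosome III. Over all chromosomes, 5.73% of the copies lay in a site. The own list of replicate 1 covered 15 copies on X and 2 on the autosomes, and that of replicate 2 covered 14 on X and 1 on the autosomes, so each library by itself placed the core mainly in X peaks. The 66 X copies outside a site included 15 within a ranked peak that missed the threshold, and the highest of those peaks had a signal of 69.8. Ranked peaks of any IDR, the sites included, held 30 of the 81 X copies (37.0%) and 38 of the 233 autosomal copies (16.3%). The contrast was thus smaller among ranked peaks than among sites that passed the threshold.

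Copies of the core preceded by TC, a distinction drawn after the copies had been seen, numbered 19 on X and 6 on the autosomes. Of these, 9 of 19 (47.4%) lay in an X site and 0 of 6 in an autosomal site. All 9 are among the printed lines, and of the 6 copies in X sites without TC, those of C41A3.2 and dpy-23 are printed.

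The 12 sites with a core copy stood high among X sites. Their signal, the score that the authors' peak caller gave to both libraries together, had a median of 152.7 and a range of 72.3 to 231.4, and the other 205 X sites had a median of 82.8. Core sites had a median of 61.5 in replicate 1 and 80.2 in replicate 2, and the other X sites had 41.4 and 44.4. The order was the same in both libraries. In the own lists of both were 9 of the 12 core sites and 77 of the 205 other X sites, a comparison not matched for signal. None of the 12 lay within 200 bp of a tRNA 5′ end, 6 were intergenic, 3 lay in promoters, 2 in introns and 1 in an exon.

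The strongest of them lay in an intron, 3390 bp upstream of cest-16, a gene of the carboxylesterase family, and held 2 copies of the core. Its signal was 231.4, with 106.3 in replicate 1 and 113.8 in replicate 2. The site 1772 bp upstream of F20B6.9 had 220.4 (105.3 and 106.0), and the one 703 bp upstream of nspc-17, a gene for a nematode-specific peptide, had 204.8 (100.9 and 100.1). At these 3 sites the values of the replicates lay close together. At the C41A3.2 site (154.5) the replicates were further apart, with 54.3 in replicate 1 and 98.6 in replicate 2, and at the Y41G9A.17 site (143.1) they read 44.97 and 90.5. These names mark only the nearest coding gene. The summits lay 15205 bp upstream of the 5′ end of C41A3.2 and 2677 bp downstream of that of Y41G9A.17. The gtr-1 site (159.6, with 72.5 and 81.4) also held 2 copies of the core, and its summit lay 3914 bp downstream of that gene's 5′ end. The ins-39 site (150.8, with 68.6 and 79.1) lay 667 bp upstream of that gene, which encodes an insulin-like peptide.

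For a further core site, the nearest coding 5′ end was that of xol-1, a gene of the sex determination pathway. It was intergenic, 4924 bp upstream of xol-1, the switch gene whose activity directs male development, and held 2 copies of the core on opposite strands. Its signal was 109.1, with 45.2 in replicate 1 and 63.6 in replicate 2. The weakest core sites were those nearest WBGene00020828 (75.2) and dpy-23 (72.3), a gene for a clathrin adaptor subunit. Their summits lay 1540 and 6264 bp downstream of the 5′ ends of these genes. Neither site was in the own list of either replicate, and neither had TC before the core.

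**Figure D1:**
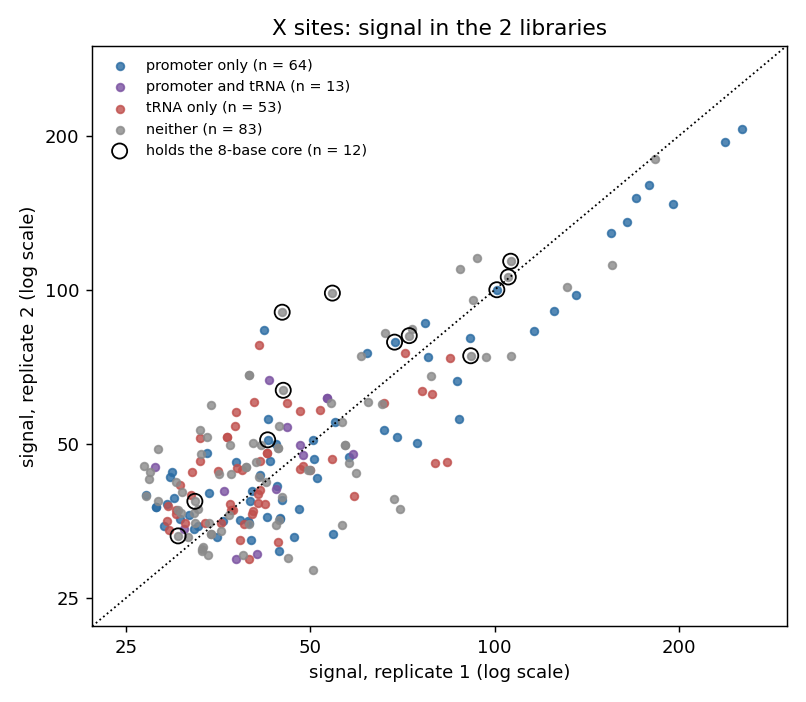
Signal of X sites in replicate 1 (x axis) and replicate 2 (y axis), both log-scaled scores with no unit, for the sites with a peak in both ranked lists; colours mark sites by promoter and tRNA gene, rings mark the 12 sites with the core, and the dotted line marks equal values. The ringed sites reach from the weakest cloud to 106.3 and 113.8 for the cest-16 site, and 15 of the 20 strongest sites had the higher value in replicate 1.

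The second way in which X sites differed was their place beside tRNA genes. On X, 67 of 217 sites (30.9%, interval 24.8 to 37.5) had a summit within 200 bp of a tRNA 5′ end, compared with 58 of 992 autosomal sites (5.85%, interval 4.47 to 7.49). The odds ratio was 7.19 and the adjusted p was 2.96e-21 (Fisher's exact test, two-sided, over 7 gene types). The 5 autosomes ranged from 5.29% to 7.18%, so X lay outside their range. An exact permutation of X among the 6 chromosomes gave p = 0.167, the smallest it can give, and so no such comparison could pass 0.05.

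The tRNA genes themselves are unevenly placed. X holds 276 of the 612 annotated tRNA genes (45.1%), or 15.6 per Mb against 4.07 per Mb on the autosomes, and it held 53.6% of the 125 sites near a tRNA gene. Counted per gene, with a summit from 1000 bp before to 200 bp after the 5′ end, 82 of 276 X tRNA genes had a site (29.7%, interval 24.4 to 35.5), and 69 of 336 autosomal ones did (20.5%, interval 16.3 to 25.3). Over all chromosomes the share was 24.7%. The autosomes ranged from 15.4% on V to 24.2% on I, and the permutation p was 0.167, again the smallest possible. The difference per gene, 1.45 times, was thus much smaller than that per site.

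Most summits at tRNA genes fell within the gene, where the internal promoter lies. On X, 43 of 67 summits (64.2%) were inside a tRNA gene, with a median of 16 bp downstream of its 5′ end, and on the autosomes 42 of 58 (72.4%) were, with a median of 22.5 bp. The signal was nearly the same, with medians of 80.3 on X and 82.4 on the autosomes, and the highest values were 166.8 on X and 127.2 on the autosomes. The B box consensus GTTCGANNC was found in 25 of the 67 X windows and in 29 of the 58 autosomal windows at tRNA genes.

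Over all sites, that consensus was in 12.4% of X windows and 4.74% of autosomal ones (adjusted p = 0.000454, Fisher's exact test, over 8 motifs). Among sites away from tRNA genes it was in 1.33% of the 150 X windows and 1.93% of the 934 autosomal windows (adjusted p = 1, Fisher's exact test, a comparison added after seeing the data). In all windows laid end to end it was present in 0.677% on X and 0.764% on the autosomes.

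The strongest tRNA site on X had a signal of 166.8, with 84.5 in replicate 1 and 73.6 in replicate 2. It lay between a tRNA-Gly gene (WBGene00023110), 19 bp upstream of its 5′ end, and a tRNA-Glu gene (WBGene00023111) on the other strand. Those genes have 29 and 20 identical copies in the genome, so reads from them could be placed at another copy, and the authors' handling of such reads is not stated in the sources used. At genes with a sequence of their own the placement is clearer. The tRNA-Leu gene WBGene00000308 had a site of 156.3 (71.3 and 75.4), the tRNA-Pro genes WBGene00022928 and WBGene00022929 shared one of 147.0 (79.0 and 62.7), and the tRNA-Trp gene shown above had 138.6 (83.5 and 46.0).

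The share of genes with a site was 11 of 57 X tRNA genes with a sequence of their own (19.3%) and 71 of 219 with a shared one (32.4%). On the autosomes the shares were 10 of 86 (11.6%) and 59 of 250 (23.6%). X was higher in both classes. Of tRNA genes nested in a protein-coding gene, 28 of 96 on X (29.2%) and 36 of 197 on the autosomes (18.3%) had a site. Of those outside coding genes, 54 of 180 on X (30%) and 33 of 139 on the autosomes (23.7%) did.

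By the amino acid that the tRNA carries, known for 273 of the 276 X genes from RefSeq, the shares on X were uneven. They were highest for tRNA-Tyr (5 of 8 genes), tRNA-Gln (8 of 15), tRNA-Lys (8 of 18) and tRNA-Asp (5 of 12). They were lowest for tRNA-Val (0 of 14), tRNA-Cys (0 of 7) and tRNA-Arg (2 of 27). On the autosomes tRNA-Lys (11 of 28) and tRNA-Asp (5 of 15) were also high, next to tRNA-Arg (7 of 17). The other named isotypes had 0 of 11 autosomal genes for tRNA-Tyr, 1 of 12 for tRNA-Gln, 4 of 17 for tRNA-Val and 1 of 6 for tRNA-Cys. Identical copies share reads, so the genes of an isotype are not independent, and these counts were not tested.

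Sites near snoRNA genes were fewer on X. None of the 217 X sites lay within 200 bp of a snoRNA 5′ end, which allows a share of up to 1.69% by the exact interval, while 62 autosomal sites (6.25%) did (adjusted p = 1.07e-05, Fisher's exact test, over 7 gene types). X holds 9.54% of the snoRNA genes, whose products guide the modification of other RNAs. Of these, 1 of 33 had a site in its promoter window (3.03%, interval 0.0767 to 15.8), and 80 of 313 on the autosomes did (25.6%), where the chromosomes ranged from 20.4% to 29.1%. The share over all chromosomes was 23.4%. The single X gene was T27A8.8, whose site of 160.8 (78.8 and 67.8) lay 726 bp upstream.

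No X site lay near an snRNA 5′ end and 20 autosomal sites did, but X has 3 snRNA genes and the adjusted p was 0.0614 (Fisher's exact test). Genes of the remaining noncoding RNA class were near 70 X sites (32.3%) and 159 autosomal sites (16.0%, adjusted p = 5.81e-07, Fisher's exact test). Of the 70, 41 were also near a tRNA gene, and such noncoding genes are denser on X, at 144.8 per Mb against 66.8. Counted per gene, 104 of 2565 on X (4.05%) and 240 of 5513 on the autosomes (4.35%) had a site in the promoter window, with 4.26% in all, so the per-site excess on X was not seen per gene. Of 74 X miRNA genes, 5 had a site (6.76%), compared with 19 of 187 on the autosomes (10.2%) and 9.20% in all. A single summit, 277 bp upstream of cel-mir-54, lay in the windows of cel-mir-54, cel-mir-55 and cel-mir-56, clustered miRNA genes. It was among the strongest on X, with a signal of 225.2 and 131.1 and 101.4 in the replicates.

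**Figure D2:**
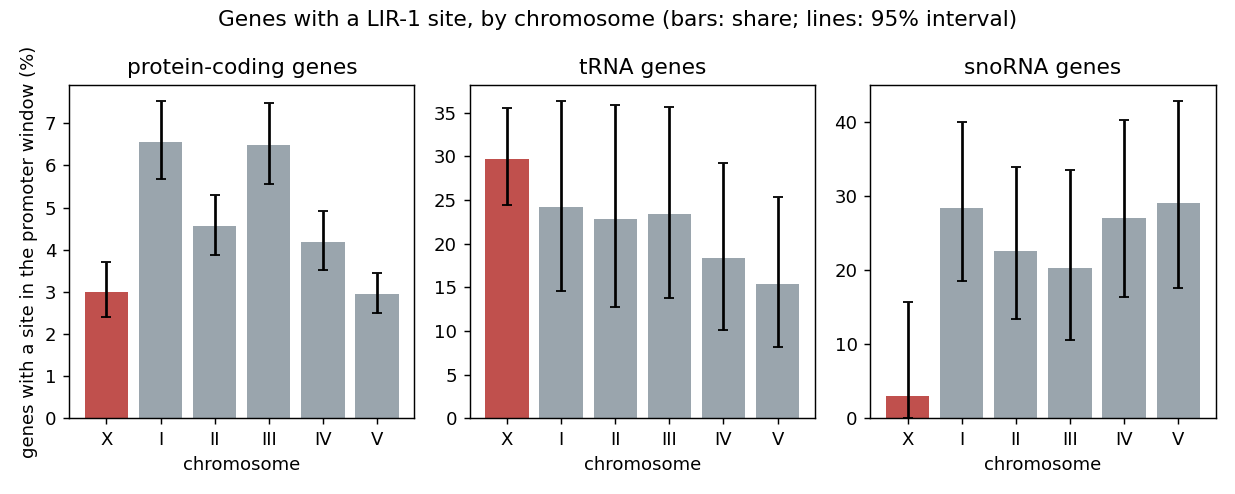
Share of protein-coding, tRNA and snoRNA genes (y axis, percent) with a LIR-1 summit from 1000 bp before to 200 bp after the 5′ end, for X (red) and each autosome (grey), with exact 95% binomial intervals. X is near the low end for coding genes at 3.00%, has the highest bar for tRNA genes at 29.7%, and has the lowest for snoRNA genes at 3.03%.

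Fewer X sites lay in promoters of protein-coding genes. On X, 80 of 217 sites (36.9%, interval 30.4 to 43.7) fell in a promoter window, and on the autosomes 584 of 992 did (58.9%, interval 55.7 to 62.0). The odds ratio was 0.408 with an adjusted p of 9.85e-09 (Fisher's exact test, two-sided, over 4 classes), and the autosomes ranged from 54.7% to 62.8%. That test treats sites as independent, and an exact permutation over chromosomes gave p = 0.167, the smallest possible. Intergenic sites made up the balance, with 80 on X (36.9%) and 168 on the autosomes (16.9%, adjusted p = 1.86e-09, Fisher's exact test). Introns held 54 X sites (24.9%) and 190 autosomal sites (19.2%, adjusted p = 0.0619), and exons held 3 (1.38%) and 50 (5.04%, adjusted p = 0.0212), again by Fisher's exact test.

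X has less promoter sequence and more intergenic sequence than the autosomes. Promoter windows cover 17.6% of X and 22.3% of the autosomes, and X has 154.1 coding genes per Mb against 208.9. Per Mb of promoter sequence, X had 25.6 sites and the autosomes 31.7, and X lay inside the autosomes' range of 20.3 to 44.9. Per Mb of intergenic sequence X had 14.0 sites and the autosomes 8.67, above the autosomes' range of 5.61 to 11.1. Per Mb of intron X had 10.5 sites and the autosomes 7.49, with a range of 6.44 to 9.66. These densities include the sites within 200 bp of a tRNA 5′ end, and they were not computed without them. Such sites made up 32 of the 80 X intergenic sites and 14 of the 168 autosomal ones. In introns they made up 22 of 54 on X and 25 of 190 on the autosomes.

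The promoter difference was smaller with the sites near tRNA genes left out. In that comparison, added after seeing the data, 44.7% of 150 X sites and 60.5% of 934 autosomal sites lay in promoters (adjusted p = 0.000679, Fisher's exact test). The remaining 83 X sites (38.2%) lay neither in a coding promoter nor near a tRNA gene, 48 of them intergenic, 32 in introns and 3 in exons. Their median signal of 83.1 was close to the 85.7 of the 67 sites in promoters alone. Of these 83 sites, 33 (39.8%) were in the own lists of both replicates, compared with 94 of the 369 autosomal sites of that kind (25.5%), a difference that was not tested.

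**Figure D3:**
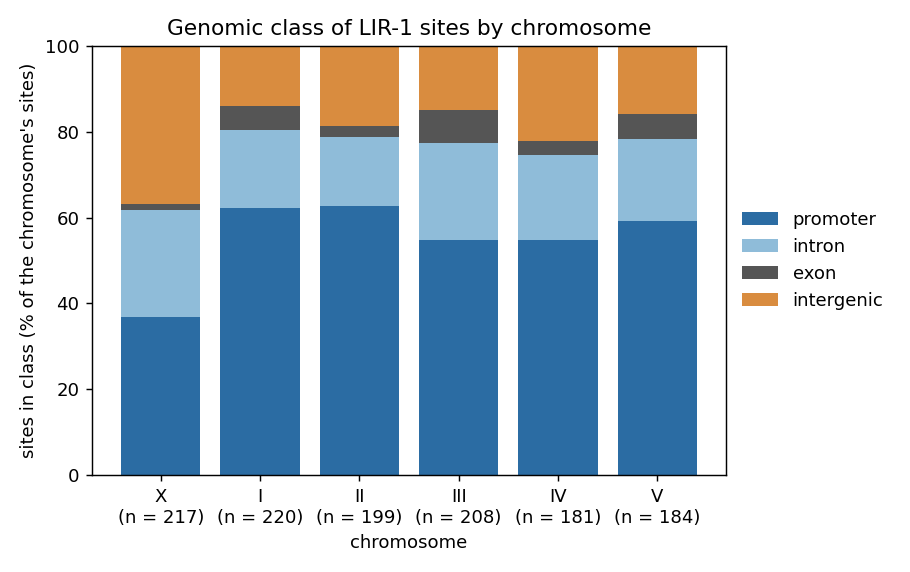
Share of LIR-1 sites in promoters, introns, exons and intergenic sequence (stacked, percent of each chromosome's sites; n below each bar), with X leftmost. The promoter part is 36.9% on X and 54.7% to 62.8% on the autosomes, and the intergenic part is 36.9% on X and 14.1% to 22.1% on the autosomes.

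Promoter sites on X lay further from the gene and were seldom shared by neighbouring genes. The median X promoter site was 337.5 bp upstream of the nearest 5′ end and the median autosomal one 202.5 bp, with autosomes from 175 to 230 bp (p = 0.167, exact permutation over chromosomes, the smallest possible). More than 500 bp upstream lay 25 of 80 X promoter sites and 80 of 584 autosomal ones (13.7%). A summit fell in the windows of more than 1 coding gene at 5 of 80 X promoter sites (6.25%, interval 2.06 to 14.0) and at 239 of 584 autosomal ones (40.9%, interval 36.9 to 45.04), where the chromosomes ranged from 32.8% to 46.5% (p = 0.167, exact permutation, the smallest possible). Of the promoter sequence itself, 5.05% on X and 12% on the autosomes lay in the windows of more than 1 gene. On the autosomes the share of sites in such windows was above that of the sequence, and on X the shares of sites and sequence were close. Distance was measured to the nearest 5′ end, so a summit in the windows of more than 1 gene takes the smaller distance. The differences in distance and in sharing are therefore linked by the measure.

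Of 2731 protein-coding genes on X, 82 had a site (3.00%, interval 2.40 to 3.71), and of 17242 on the autosomes 801 did (4.65%), with 4.42% over all chromosomes. The autosomes ran from 2.94% on V to 6.57% on I, so X lay within their range (p = 0.667, exact permutation). Assigned to the nearest coding gene at any distance instead, the order turned round, with 6.81% of X genes and 5.02% of autosomal genes.

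The nearest coding genes of the 20 strongest X sites had varied roles, and 11 of these sites lay in promoters, 6 in intergenic sequence and 3 in introns. All 20 were in the own lists of both replicates and none was near a tRNA gene. The leading sites, at ZC506.1, a gene for a mannosidase-like enzyme, and F46H5.2, had signals of 468.8 (254.1 in replicate 1 and 206.8 in replicate 2) and 448.2 (238.2 and 194.6). Below them came those of hda-4, which encodes a class II histone deacetylase, epn-1 (epsin, in endocytosis), spat-3 (a RING protein of the Polycomb type) and ain-1 (a partner of microRNA complexes). They were followed by spc-1 (alpha spectrin) and bet-2 (a bromodomain protein), with the group running from 378.0 down to 282.7.

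The next tier lay between 180.2 and 272.5. It included F52G3.1 (272.5, with 155.9 in replicate 1 and 111.9 in replicate 2), sto-4, a stomatin gene whose site lay 15 bp upstream (239.4, with 136.0 and 97.6), and hsp-3, which encodes an endoplasmic reticulum chaperone (216.7, with 125.1 and 90.8). It also held puf-9, a gene for a Pumilio-type RNA-binding protein (210.1, with 116.2 and 83.1), and tsp-21, a tetraspanin gene (180.2, with 96.9 and 73.9). The remaining ones were W02H3.3 (220.3), whose window held the core just beyond its peak, F55G7.5 (205.0), K02D3.1 (197.5), F09A5.3 at the miRNA cluster (225.2) and the 3 core sites described above. Replicate 1 had the higher value at 15 of the 20, and at 100 of the 213 X sites with a value in both.

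The string TGTGTG, or CACACA on the other strand, recurred in the strongest windows. It was present in 10 of the 20 strongest X windows, including the printed ones of ZC506.1, F46H5.2, hda-4 and spat-3 and not those of epn-1 and ain-1. Over all sites it was in 18.9% of X windows (interval 13.9 to 24.7) and 15.3% of autosomal windows (interval 13.1 to 17.7), and the intervals overlap. Away from tRNA genes it was in 26% of X windows (interval 19.2 to 33.8) and 15.8% of autosomal windows (interval 13.6 to 18.3). Those intervals do not overlap. Of all windows laid end to end, 4.88% on X and 4.14% on the autosomes held the string. No test was made, because the string was picked on these windows. It was not counted in the strongest autosomal windows.

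The other 6 motifs searched, on both strands, did not pass the test between X and autosomal sites (Fisher's exact test, two-sided, adjusted over the 8 motifs). The GA repeat, the string CTGCGTCT, the E2F core and the E-box were more frequent at sites than in the flanks, on X and on the autosomes. GAGAGA was in 20.7% of X windows and 20.2% of autosomal windows (adjusted p = 0.852, exact test), over flanks of 5.07% on X and 6.60% on the autosomes and 4.91% and 5.24% of all windows there. CTGCGTCT was in 5.99% of X windows and 8.77% of autosomal windows (adjusted p = 0.352, exact test), over flanks of 0.230% on X and 0.605% on the autosomes and 0.280% and 0.572% of all windows there.

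The E2F core TTCCCGC was in 3.23% of X windows and 4.33% of autosomal windows (adjusted p = 0.713, exact test). Flanks held it in 0.922% of cases on X and 0.907% on the autosomes, with 0.824% and 1.31% of all windows there. The E-box CACGTG was in 4.61% of X windows and 5.75% of autosomal windows (adjusted p = 0.713, exact test). Flanks held it in 1.38% of cases on X and 2.17% on the autosomes, with 1.32% and 1.74% of all windows there. The GATA motif TGATAA was in 6.91% of X windows and 4.03% of autosomal windows (adjusted p = 0.1697, exact test), both below the 9.96% and 9.22% of all windows on X and on the autosomes. The YY1-like AAGATGGC was in 0.922% of X windows and 0.101% of autosomal windows (adjusted p = 0.1697, exact test), with 0.211% and 0.184% of all windows.

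**Figure D4:**
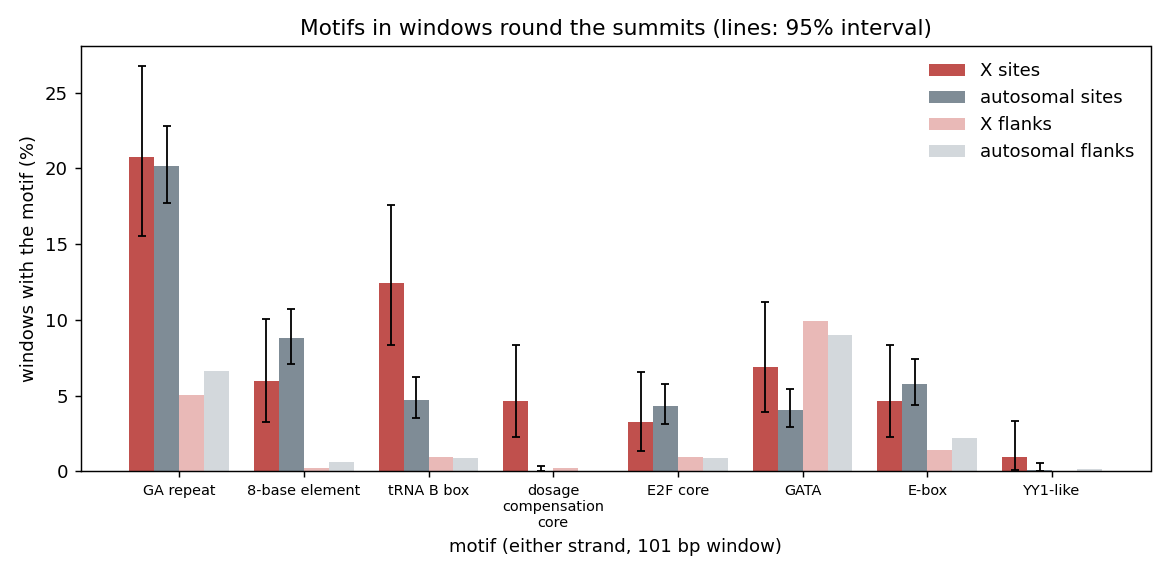
Share of windows reaching 50 bp to either side of the summit (y axis, percent) that hold each motif on either strand, for X sites (red), autosomal sites (grey) and windows 500 bp to either side (pale), with exact 95% binomial intervals on the sites. The B box is higher at X sites (12.4% and 4.74%), and the dosage compensation core is present at 4.61% of X sites and 0% of autosomal sites.

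Among the 6 X-linked genes of the sex determination and dosage compensation list, sdc-2 had a site. The site lay 456 bp upstream of sdc-2, whose product directs the dosage compensation complex to X, and its signal of 68.4 (31.7 in replicate 1 and 36.3 in replicate 2) was near the low end of X sites. The others had ranked peaks that missed the threshold or none in the promoter window. The highest signal among these was 57.6 at ceh-39, a homeobox gene of the X signal (IDR 0.274). The promoter of xol-1 reached 37.0 with the lowest IDR of them (0.204), that of sdc-1 29.2 and that of fox-1, an RNA-binding protein gene of the X signal, 28.5. The promoter of sex-1, a nuclear receptor gene of that signal, held no ranked peak. Of the 15 autosomal members, 0 had a site.

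The other gene lists had small numbers of members with a site on X, and their shares are to be read beside the 3.00% of all X coding genes and the 4.42% of all coding genes. Of 34 neuropeptide genes on X, 1 had a site (2.94%, ins-39), and of 27 ligand-gated channel genes, 1 did (3.70%, lgc-25, 99.6, with 48.6 and 47.6 in the replicates), both near the share of all X coding genes. On the autosomes 0 of 106 and 0 of 69 did. Of 23 nuclear hormone receptor genes on X, nhr-255 (103.2, with 42.8 and 66.5) and nhr-35 (78.9, with 40.0 and 32.4) had a site, and 2 of 246 on the autosomes did. Of 5 chaperone genes on X, hsp-3 and dnj-14 (76.9, with 47.0 and 32.8) had one, and 13 of 54 on the autosomes. The nearest coding gene to the dnj-14 summit was not dnj-14 but glit-1, whose 5′ end lay 178 bp away. The lgc-25 and nhr-255 summits also lay near a tRNA 5′ end, at 27 and 11 bp, closer than to the coding genes.

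Lists rich in sites elsewhere have few members on X. Ribosomal protein genes, of which 32 of 79 autosomal members had a site, have 2 on X, and rpl-11.2 had a site of 101.5 (50.5 and 50.9). Membrane traffic genes had 0 of 6 on X and 8 of 54 on the autosomes. No X site lay in the promoters of 27 collagen genes, 18 ceh homeobox genes, 17 potassium channel genes, 9 muscle filament genes or 5 vitellogenin genes, the yolk protein genes. On the autosomes the counts were 1 of 129, 2 of 45, 1 of 44, 1 of 22 and 0 of 1.

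In number, X sites matched the length of the chromosome. X holds 17.7% of the genome and 17.9% of the sites (interval 15.8 to 20.2), or 12.2 sites per Mb, compared with 12.02 on the autosomes, which ranged from 8.79 to 15.1 (p = 1, exact permutation over chromosomes). Of 6773 ranked peaks on X, 217 (3.20%) passed the IDR threshold, and of all 36484 on the nuclear chromosomes 3.31% did. At that threshold the X peaks just inside were those nearest tatn-1 (IDR 0.00934, signal 62.8), sur-5 (0.00931, 67.0) and elt-2 (0.00910, 67.8). Of these, tatn-1 is a tyrosine aminotransferase gene and elt-2 encodes the GATA factor of the intestine. Just outside were the peaks nearest slc-25A21 (0.0100, 66.7), C05G5.2 (0.0102, 73.5) and osm-11 (0.0103, 71.0). The sur-5 summit lay 1078 bp upstream of that gene's 5′ end. The slc-25A21 and osm-11 summits lay 2975 and 795 bp downstream of theirs.

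Signal at the middle of the range was much the same on X and on the autosomes, and the share of very strong sites on X was just above the highest autosome. Median signal was 83.4 on X and 86.8 on the autosomes, which is -0.06 as X minus autosomes in log2 units (p = 0.5, exact permutation over chromosomes). In replicate 1 the median was 42.4 on X and 44.1 on the autosomes, and in replicate 2 it was 44.6 on X and 43.4 on the autosomes, so the libraries differed in direction. Signals above 200 were found at 18 X sites (8.29%) and 49 autosomal sites (4.94%, autosomes 2.72% to 7.73%; p = 0.5, exact permutation). X held 5 of the 10 strongest sites of the set and 14 of the 50 strongest.

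By class, promoter sites had medians of 87.1 on X and 93.0 on the autosomes, and intergenic sites had 86.9 and 82.3. Intron sites had 79.5 and 81.7, and exon sites 71.8 and 72.6. Of the X sites, 86 (39.6%) were in the own lists of both replicates and 68 (31.3%) in neither, compared with 354 (35.7%) and 312 on the autosomes. Across sites with a peak in both ranked lists, Spearman's rho of the replicate signals was 0.64 over 213 X sites and 0.57 over 971 autosomal sites. These are descriptions of sites that were chosen for agreement between the libraries. The 11 X sites with a signal below 50 each overlapped a stronger site, and the other 206 had 59.99 or more.

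Along the chromosome, sites were spread from end to end with more towards the right. The left, middle and right parts of equal length held 63, 69 and 85 sites, or 10.7, 11.7 and 14.4 per Mb, and the share of coding genes with a site was 2.87%, 3.18% and 2.94%. The densest of such parts was the middle one on I, III, IV and V and the right one on II, and no test of the order was made. The first summit lay at 353372 and the last at 17544531. The median gap between neighbours was 50151.5 bp, and the widest, 481000 bp, ran from 9999682 to 10480682.

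Bins of 1 Mb held 4 to 20 sites, and the shorter last bin held 3. The bins from 14 to 15 Mb and from 16 to 17 Mb held 20 each, with different make-up. In the bin from 14 to 15 Mb, 13 sites lay in promoters, 5 were near a tRNA gene and the strongest was that of epn-1. In the bin from 16 to 17 Mb, 2 lay in promoters, 6 near a tRNA gene and 12 in neither, and the strongest was that of hda-4. The bin from 8 to 9 Mb had the most tRNA genes, 51, and 7 sites near one, while the bin from 13 to 14 Mb had 30 tRNA genes and 9 such sites.

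**Figure D5:**
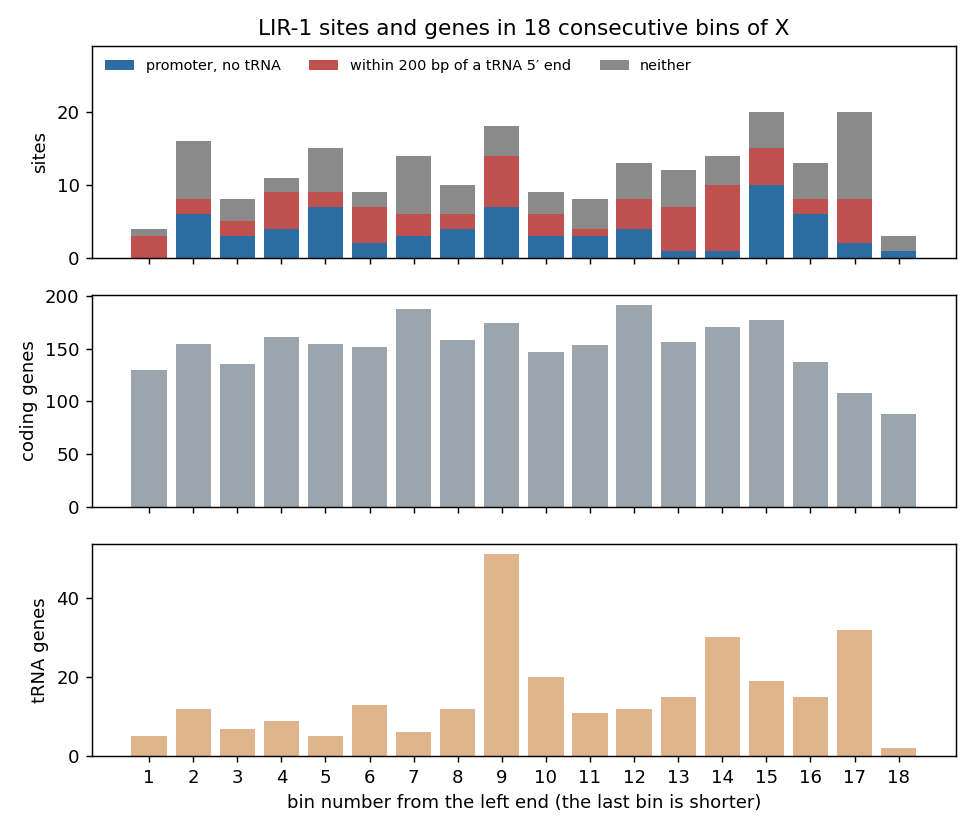
Sites by kind (top), protein-coding genes (middle) and tRNA genes (bottom) in 18 consecutive bins of 1 Mb from the left end of X, all as counts per bin. Bins 15 and 17 hold 20 sites each, mostly in promoters in bin 15 and mostly neither in promoters nor near tRNA genes in bin 17, while bin 9 holds 51 tRNA genes and 7 sites near one.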

How the data were processed

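Chromatin immunoprecipitation and sequencing of tagged LIR-1 was analysed from the deposited peak lists of 2 libraries of 1 group, on ce11 per the labels. The deposited lists hold a signal score for each peak, written by the authors' peak caller, and −log10 of the IDR; the deposited score is the authors' own and was used within a list alone, and no source used here gives its scaling. The aligner, the caller, their versions and the treatment of reads with several matches are also not given in the sources used here, and the control alignment used by the authors was not analysed here. The files give no read totals, so depth is unknown; intervals cover counting error only.

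The 1209 sites of the conservative set were placed by summit with Ensembl release 115 gene models: first as promoter (1000 bp before to 200 bp after a coding 5′ end), and if not as exon, as intron or as intergenic. A replicate's signal is that of the highest peak of its ranked list overlapping the site by 1 bp or more, so overlapping sites can share it. Chromosomes were compared by exact permutation of X among the 6 (two-sided, smallest p = 0.167). Shares of sites were compared by Fisher's exact test (two-sided), adjusted by the Benjamini-Hochberg method within 4 classes, 7 gene types or 8 motifs, with a threshold of 0.05. Intervals are exact binomial (Clopper-Pearson) 95% intervals. These tests treat sites as independent, which neighbours are not. Whether the replicates were separate cultures is known only as far as their labels as biological replicates go.

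The X sites, the gene lists and the motifs were chosen with earlier results of these data known. Named were the nearest coding genes of the 20 strongest X sites, up to 3 X members of each gene list, by signal, every X member of the sex determination list, up to 3 X genes of each small RNA type, peaks next to the threshold, and the strongest sites of the fullest bins. The copies of the core and the sites holding them were followed after the motif test was seen, as were the counts of shared promoter windows, the distance of promoter sites and the 6-base string. Of the symbols in the gene lists, 1 (tni-2) was not in the annotation. Alternatives were the other series list, each replicate's own list, the sites at or above the median signal, merged peaks, other windows and distances, and nearest-gene assignment. The computations used Python 3.11.15 with numpy 2.4.6, pandas 2.3.3, scipy 1.17.1, statsmodels 0.14.6 and matplotlib 3.10.9, and the tests were tried on simulated data.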

Additional observations from a re-analysis of the deposited data

How the results depend on the processing

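No paired analysis was possible because there was 1 group. The promoter share (X minus autosomes, -22.005 percentage points) and the tRNA share (25.03 points) kept their direction and passed under all 8 and all 7 alternatives, from -29.4 to -15.8 and from 23.7 to 26.2 points, and the core GCGCAGGG did so under 6, from 3.23 to 8 points. The B box difference of 7.70 points missed the threshold with a 51 bp window (1.21 points), with the list of replicate 2 alone (6.06 points, against 6.69 points with that of replicate 1) and among the sites at or above the median signal (6.45 points). It turned to -0.59 points away from tRNA genes. AAGATGGC turned to -0.10 points in the 51 bp window. Sites per Mb (difference 0.23) turned to -0.47 among the stronger sites, and ran from -0.71 to 0.45 in the lists of single replicates. The share of coding genes with a site (-1.64 points) turned to 1.79 points with nearest-gene assignment. That rule counts sites at any distance and gives each site to a single gene. Median log2 signal (-0.06) turned to 0.061 among the stronger sites, to 0.038 in the ranked list of replicate 2 and to 0.034 outside promoters, and ran from -0.089 to 0.00016 in the own lists. Causes of these changes were not tested. None of the chromosome-level tests could pass with 6 chromosomes. Depth is unknown, there is no untagged library here, and tissues were pooled.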

Other observations

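Among windows at tRNA genes, the GA repeat was more frequent on X than on the autosomes, but on X it was not particular to tRNA genes. GAGAGA was in 17 of the 67 X windows at tRNA genes (25.4%) and in 6 of the 58 autosomal windows at tRNA genes (10.3%), but in 28 of 150 X windows away from tRNA genes (18.7%) and in 194 of 934 autosomal ones (20.8%). The 150 X windows comprise 67 in promoters, of which 17 held it (25.4%), and 83 outside them, of which 11 did (13.3%). The tRNA-Trp window printed above has such a repeat beside the gene. These counts were read off after the windows had been seen and were not tested. Over X sites the median GC content of the window was 50.5%, compared with 48.5% over autosomal sites, whose chromosomes ranged from 47.5% to 49.5%.

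X sites were not more clustered than those of the autosomes. On X, 47 of the gaps between neighbouring summits (21.8%) were 10 kb or less, and the autosomes ranged from 23.5% to 29.7%. Gaps of 1 kb or less made up 8.80% on X and 7.22% to 10.4% on the autosomes.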
